A study of Mus musculus with 12 samples.

Results

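The 54 genes described here encode proteins that copy DNA in S phase or act beside the replication fork. They were chosen by name: 6 helicase subunits, 11 genes for the loading and firing of origins, 7 for primase and polymerases, 9 for the sliding clamp, its loader and the single-strand binding complex, 3 for Okazaki fragment processing, 3 for nucleotide supply, 9 for chromatin assembly and DNA methylation and 6 for fork protection, checkpoint and repair. Each of the 54 symbols was found once in each table of deposited values, among 45563 symbols used, and all 54 passed the filter on low values (a mean over the 12 libraries of 0.1 FPKM or more, where FPKM stands for fragments scaled by a gene length and by library size). RNA was sequenced from primary mouse oligodendrocyte precursor cells (OPCs), the dividing progenitors of myelinating oligodendrocytes, isolated from the cortex of C57BL/6 pups aged 2 to 5 days by the labels (the methods give a narrower range) and kept 3 days in vitro. By the study's methods the cells were selected with beads against PDGFRα and grown with PDGF-AA and FGF2, which are mitogens of these cells, in all groups. The 4 groups of 3 libraries were WT and TNFR2-/- cells that were non-stimulated (NS, PBS vehicle) or stimulated (St) for 3 h with TNF, IFNγ and IL1β at 25 ng/mL each. The TNFR2-/- mice carried a germline deletion of the receptor gene *Tnfrsf1b*, so every cell type in those cultures carried it.

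Before a cell copies its DNA, the origin recognition complex, CDC6 and CDT1 load the MCM helicase onto origins in G1, geminin then blocks CDT1, and cyclin E with its kinase, together with MCM10, CDC45 and the GINS complex, turns the loaded helicase into a moving fork. Primase and polymerase alpha start each strand, polymerases delta and epsilon extend it around the PCNA clamp, and FEN1 and ligase I join the lagging strand. Many of these genes are transcribed as cells enter S phase under control of E2F factors, so their RNA is commonly read as a sign of proliferation, and OPCs are among the dividing cells of the postnatal brain.

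The libraries held between 26870251 and 30316546 reads on genes, and replicates of a group correlated at 0.991 to 0.995 on the log2 scale. Reads on *Tnfrsf1b* went against the genotype labels, with 12 to 24 in WT NS, 61 to 145 in WT St, 213 to 346 in the libraries labelled TNFR2-/- NS and 282 to 356 in those labelled TNFR2-/- St. Directions between genotypes below therefore rest on the labels, and the reads cannot show which part of the gene was deleted. OPC markers were abundant (8 of 8 passed the filter). Their summed level was 6552 to 9281 CPM, which are recovered read counts scaled to the same library size. *Ptprz1* alone gave 3655 to 4849 CPM of that sum, and *Pdgfra* 279 to 770. Microglia markers were close to 0 (3 of 8, *Cx3cr1*, *Aif1* and *Ptprc*, had at most 3 reads in every library). Libraries of 1 genotype with the same replicate number are called a culture here, because their deviations from the group means went together. TNFR2-/- culture 5 stood apart: its *Gfap*, an astrocyte gene, was at 346 (NS) and 349 (St) CPM, against 29.5 to 63.7 in the other TNFR2-/- libraries and 9.34 to 34.9 in WT. The astrocyte gene *Aqp4* was at 347 and 436 CPM in culture 5 and *Slc1a2* at 690 and 711. In all other libraries these 2 were at 36.8 to 156 and 217 to 438. *Slc1a3*, *Gja1*, *Aldoc* and *S100b* also lay above all other libraries in culture 5. Of the astrocyte list only *Aldh1l1* did not stand apart (222 and 192 CPM, against 242 and 214 in TNFR2-/- culture 2). Genes of the oligodendrocyte lineage did: *Gpr17* was at 1205 and 650 CPM in culture 5, against 90.8 to 421 in all other libraries. *Cnp* was at 546 and 471 CPM there, against 197 to 281. Results that rest on culture 5 are given with and without it.

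The genes differed widely in level. As recovered CPM per kilobase of annotated exon, a scale on which genes can be compared, *Pcna*, the sliding clamp, was highest in WT NS at 97.1 ± 4.79 (SD, n = 3). *Rrm2*, the regulated subunit of ribonucleotide reductase, followed at 57 ± 6.19, then the helicase subunit *Mcm4* at 35.2 ± 2.27 and the maintenance methyltransferase *Dnmt1* at 30 ± 0.385. The licensing factors lay lower, with *Cdt1* at 10.1 ± 0.415 and *Cdc6* at 3.59 ± 0.458. *Fen1*, the flap endonuclease, was lowest at 0.553 ± 0.027. It drew as few as 13 reads in a library, and 84.2% of its exon bases overlap other genes on the opposite strand (*Tmem258* and *Gm10143*), as 67.3% do for *Gins2* and 52.5% for *Chaf1a*, so the values of these 3 genes are uncertain.

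The mean level of the 54 genes, as log2(FPKM + 0.5), was 5.43, 5.28 and 5.31 in WT NS cultures 2, 3 and 4. After stimulation it was 5.27, 5.07 and 5.12, which is 0.15 to 0.21 lower in each culture. In cultures labelled TNFR2-/- it was 5.42, 5.26 and 4.95 in NS cultures 2, 4 and 5, and 5.16, 4.94 and 4.67 after stimulation. Every culture therefore went down, those labelled TNFR2-/- by values between 0.26 and 0.31. The median difference over all genes tested was −0.05 to −0.06 in WT cultures and −0.1 to −0.12 in those labelled TNFR2-/-. With median-of-ratios scaling in place of the deposited scaling, the median log2 fold change of the 54 genes was −0.14 in WT and −0.15 in TNFR2-/-. The cultures also lay apart before stimulation, and culture 5 in NS (4.95) was about where culture 4 was after stimulation (4.94). The group means were 5.34 ± 0.08 in WT NS, 5.15 ± 0.11 in WT St, 5.21 ± 0.24 in TNFR2-/- NS and 4.93 ± 0.24 in TNFR2-/- St (SD, n = 3), so the ranges of NS and St did not overlap in WT and did overlap in TNFR2-/-. RNA from a whole culture cannot tell fewer cells in S phase from less RNA of these genes per cell.

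**Figure D1:**
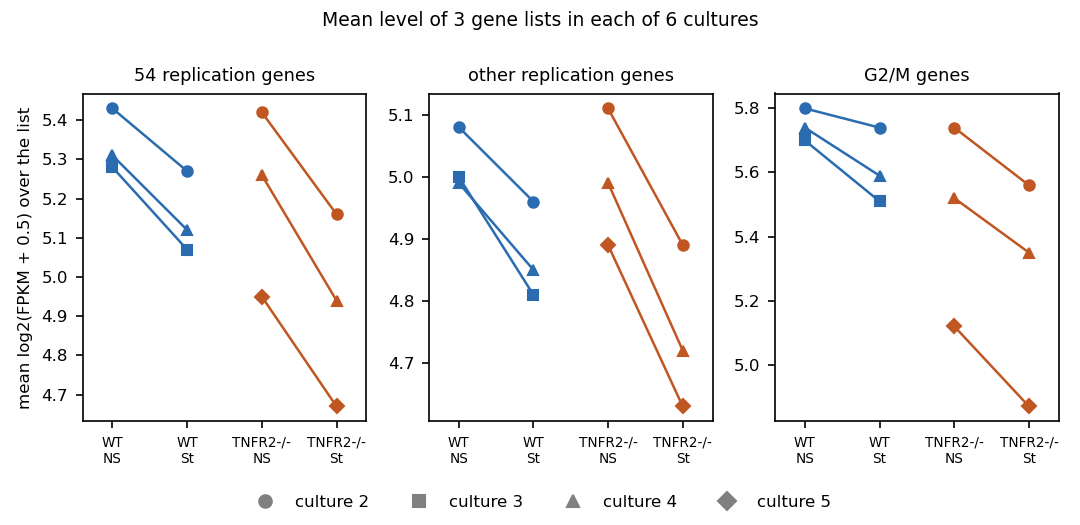
Mean log2(FPKM + 0.5) of the 54 replication genes (left), of other replication genes (middle) and of G2/M genes (right) in each of 6 cultures, with a line joining the NS and St library of 1 culture (blue, WT; orange, TNFR2-/-; each panel has its own y axis, which does not start at 0). All 6 lines go down in each panel, and TNFR2-/- culture 5 lies lowest within each condition, at 4.95 in NS and 4.67 in St for the 54 genes. The median difference over all genes tested, not drawn, was also below 0 in each culture (−0.05 to −0.12).

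Promoters are shown because E2F factors are a known class of regulator of such genes. Of the 54 genes, 42 had a RefSeq promoter window (GRCm38.p6, 250 bases before to 50 after the annotated start). The letters TTTCCCGC, TTTCGCGC, TTTGCCGC and TTTGGCGC, the usual E2F match, and their complements on the other strand (GCGGGAAA, GCGCGAAA, GCGGCAAA, GCGCCAAA) were searched. They were in a window of 18 of the 42 genes (42.9%), against 4.35% of 11744 tested genes with a window and 2.6% of all 27025 genes with one. CCAAT or ATTGG was in 27 of 42 (64.3%), against 42.2% and 41.1%. The stretches below are 5′ to 3′ on the gene's strand with the match in capitals, for 5 genes that fell on stimulation of TNFR2-/- cells and then 3 that did not pass the test in either genotype (*Mcm5* passed with the block described below). Matches can overlap, as in *Mcm5* and *Mcm6*, where 1 is marked.
Cdc6: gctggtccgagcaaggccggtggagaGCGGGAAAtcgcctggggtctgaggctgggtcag
Cdt1: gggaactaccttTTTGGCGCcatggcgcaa
Gins3: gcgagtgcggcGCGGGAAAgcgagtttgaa
Cdca7: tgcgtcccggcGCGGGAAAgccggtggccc
Dtl: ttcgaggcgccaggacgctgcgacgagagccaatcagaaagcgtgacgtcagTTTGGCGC
Mcm5: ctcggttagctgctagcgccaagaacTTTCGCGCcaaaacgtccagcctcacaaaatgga
Mcm6: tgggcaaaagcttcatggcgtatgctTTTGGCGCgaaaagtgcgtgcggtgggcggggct
Pola1: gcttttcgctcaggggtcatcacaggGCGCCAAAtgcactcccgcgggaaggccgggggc
The stretches lie at chr11:98907987-98908046 (*Cdc6*, + strand), chr8:122568035-122568064 (*Cdt1*, +), chr8:95633507-95633536 (*Gins3*, +), chr2:72476137-72476166 (*Cdca7*, +), chr1:191575545-191575604 (*Dtl*, −), chr8:75109330-75109389 (*Mcm5*, +), chr1:128359782-128359841 (*Mcm6*, −) and chrX:93632260-93632319 (*Pola1*, −). Those of *Cdt1*, *Gins3* and *Cdca7* overlap an annotated exon of their own gene, and the others overlap no exon. The median log2 fold change on stimulation was −0.21 for the 18 genes with an E2F match and −0.19 for the 24 without one in WT, and −0.27 and −0.23 in TNFR2-/-. Of the genes with a match 2 fell in WT and 5 in TNFR2-/-, and of those without one 2 and 4, so genes of both kinds fell. Of all genes tested 8.36% fell in WT and 16.3% in TNFR2-/-. A match is a string of letters and was not tested as a binding site.

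The first comparison asks how 3 h of cytokines altered the replication genes. In WT cells *Cdt1* and *Cdc6*, which load the helicase, fell with *Slbp*, which binds the end of histone mRNAs, and *Wdr76*, which encodes a WD-repeat protein, while *Pola2*, a subunit of polymerase alpha, rose. In cells labelled TNFR2-/- 11 genes fell and none rose: *Cdc6*, *Cdt1*, *Ccne1*, *Ccne2*, *Gins3*, *Gins4*, *Rpa3*, *Slbp*, *Cdca7*, *Dtl* and *Wdr76*. Among the helicase subunits, the primase and polymerase genes, Okazaki fragment processing and nucleotide supply no gene fell in either genotype in this test. It does not pair the NS and St libraries of a culture. With the culture as a block, 2 helicase subunits were lower in WT and 4 in TNFR2-/-. In each genotype 2 primase and polymerase genes, 1 of Okazaki fragment processing and 2 of nucleotide supply were lower with it. Of all genes tested 20.2% and 31.7% were lower with that block.

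In WT, 4 of 54 genes fell and 1 rose at an adjusted p of at most 0.05, against 8.36% and 7.7% of the 18081 genes tested, so the share that fell was not above that of all genes. In TNFR2-/-, 11 of 54 fell, against 16.3% of all genes, and none rose, against 9.62% (17 had an unadjusted p under 0.05). The counts depended on single libraries: without WT NS 2, WT St 3 or WT St 4 only *Cdt1* fell in WT and 3 genes did without WT NS 3, and in TNFR2-/- 6 fell without NS 2, 7 without St 4 or St 5, 17 without St 2 and 21 without NS 5. With the culture as a block, which takes out the distance between cultures, 30 genes were lower and 2 higher in WT (all genes tested, 20.2% and 11.4%), and 34 lower and 1 higher in TNFR2-/- (31.7% and 13.4%). With that block and median-of-ratios scaling in place of the deposited scaling, 21 were lower and 2 higher in WT (13.9% and 13.8%) and 24 and 1 in TNFR2-/- (17.4% and 18.1%). The median log2 fold change was −0.20 in WT and −0.26 in TNFR2-/-, beside −0.05 and −0.11 over all genes tested. Median-of-ratios scaling gave −0.14 and −0.15, beside −0.01 and −0.02, and left 40 of 54 genes below 0 in place of 47 in WT and 41 in place of 52 in TNFR2-/-.

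Most genes were lower in each culture. Of the 54 genes, 46, 45 and 46 were lower after stimulation in WT cultures 2, 3 and 4, where 59.5% to 60.3% of all genes tested were, and 50, 51 and 51 were in TNFR2-/- cultures 2, 4 and 5, where 61.1% to 63.8% were. In all 6 cultures 36 genes were lower (29.6% of all genes tested) and 1, *Pola2*, was higher (13.2%). The NS and St libraries did not overlap for 24 lower genes in WT (24% of all genes tested) and for 11 in TNFR2-/- (24.7%), and for *Pola2* as the 1 higher gene in WT (13.7%) with 0 higher in TNFR2-/- (12.7%).

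**Figure D2:**
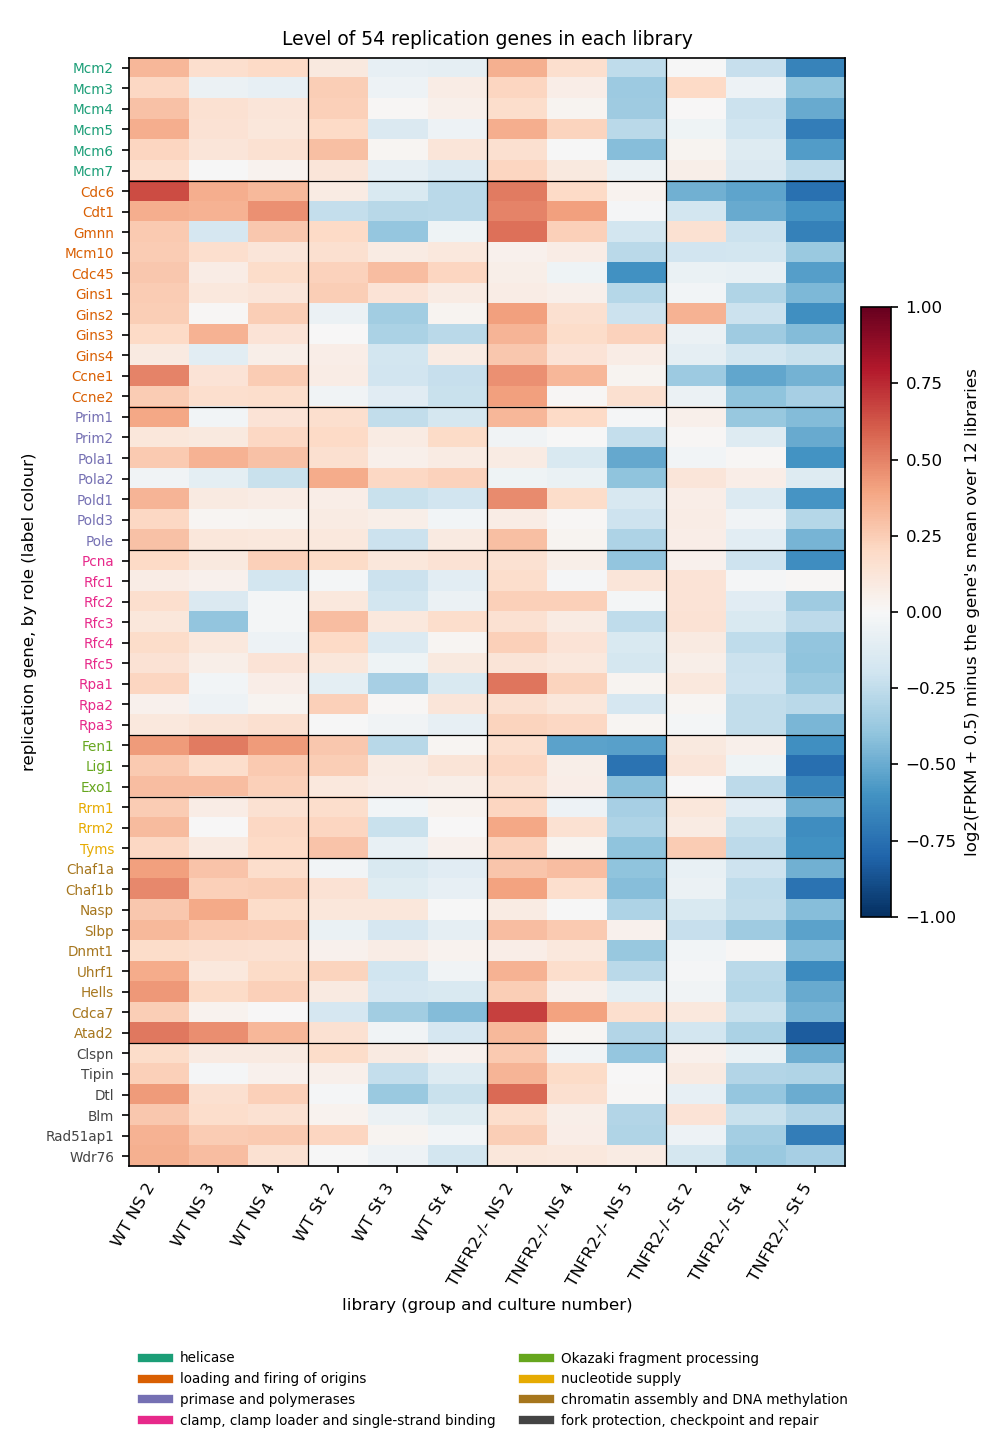
Level of each of the 54 genes in each of 12 libraries, as log2(FPKM + 0.5) minus the gene's mean over all libraries (red, above; blue, below; the colors span −1 to 1), with genes grouped by role. St columns are bluer than the NS columns of the same culture number for most genes, *Cdc6* and *Cdt1* most visibly, and TNFR2-/- culture 5 is blue for most genes in both conditions.

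Origin licensing held the largest changes. *Cdc6*, the loader of the helicase, stood at 272, 223 and 217 FPKM in WT NS and at 183, 156 and 144 in WT St. It stood at 249, 199 and 178 in TNFR2-/- NS and at 124, 120 and 103 in TNFR2-/- St. No stimulated library reached its non-stimulated group, and the log2 fold change was −0.56 ± 0.14 (SE, adjusted p = 0.0199) in WT and −0.84 ± 0.14 (adjusted p = 0.00153) in TNFR2-/-. *Cdt1*, its partner in loading, was at 44.5, 43.8 and 47.3 FPKM in WT NS and at 29.1, 28.3 and 28.4 in WT St, groups that lay apart with little spread within either. In TNFR2-/- it was at 48.8, 45.9 and 34.1 FPKM in NS and at 30.3, 24.1 and 22.7 in St. *Cdt1* fell by 0.65 ± 0.13 on the log2 scale in WT (adjusted p = 0.00727) and by 0.72 ± 0.13 in TNFR2-/- (adjusted p = 0.0028), and every culture showed it, with differences of −0.58 to −0.91. *Gmnn*, the inhibitor of CDT1, did not pass the test in either genotype, with log2 fold changes of −0.20 ± 0.25 and −0.45 ± 0.25 and cultures that lay far apart (21.3 to 29.1 FPKM in WT NS). With the culture as a block it was lower in both (adjusted p = 0.0385 and 0.00107).

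The E-type cyclins activate a kinase that acts in the firing of origins. *Ccne1* was at 253, 197 and 214 FPKM in WT NS and 189, 157 and 153 in WT St, groups that did not overlap, yet its change of −0.41 ± 0.13 did not pass the test (adjusted p = 0.0524). In TNFR2-/- it was at 247, 226 and 183 FPKM in NS and 139, 125 and 129 in St, and it fell by 0.72 ± 0.13 (adjusted p = 0.00199). *Ccne2* fell in TNFR2-/- from 9.33, 6.94 and 7.75 to 6.59, 5.08 and 5.37 FPKM (log2 fold change −0.46 ± 0.12, adjusted p = 0.0193). In WT its 3 St libraries (5.82 to 6.70 FPKM) also lay below the NS libraries (7.79 to 8.31), with −0.32 ± 0.12 and adjusted p = 0.108. With the culture as a block both cyclins passed in WT, at adjusted p = 0.00556 and 0.00544.

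The GINS complex, which travels with the helicase, was mixed. *Gins3* fell in TNFR2-/- from 1.59, 1.37 and 1.43 to 1.08, 0.788 and 0.717 FPKM (−0.53 ± 0.13, adjusted p = 0.0123) and just missed in WT (−0.42 ± 0.13, adjusted p = 0.0514, or 0.0313 with the block), where no St library reached an NS library. *Gins4* fell in TNFR2-/- from 29.6, 26.9 and 25.8 to 23, 21.5 and 20.9 FPKM (−0.32 ± 0.09, adjusted p = 0.0248), and in WT it was at 26.1, 22.7 and 25.5 before and 25.6, 21.5 and 25.9 after stimulation, ranges that overlap. *Gins1* and *Gins2* did not pass in either genotype, *Gins2* only with the block. *Cdc45*, the third component of the active helicase, gave log2 fold changes of 0.07 ± 0.18 in WT and −0.03 ± 0.18 in TNFR2-/-, and *Mcm10*, which helps to activate it, gave −0.07 ± 0.11 and −0.20 ± 0.11. Of the 11 origin genes, 2 fell in WT and 6 in TNFR2-/-, or 7 and 8 with the culture as a block. Of all genes tested 8.36% and 16.3% fell, or 20.2% and 31.7% with the block.

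**Figure D3:**
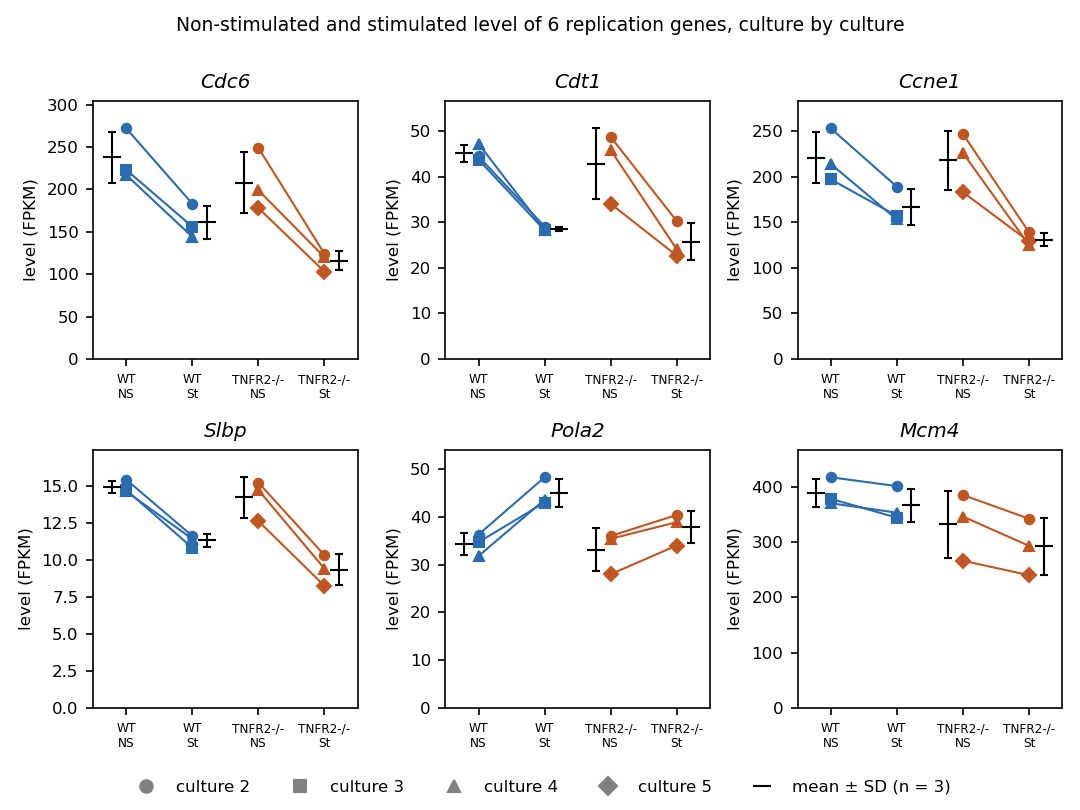
Level (FPKM, y axis from 0) of *Cdc6*, *Cdt1*, *Ccne1*, *Slbp*, *Pola2* and *Mcm4* in each library, with lines joining the NS and St library of 1 culture and the mean ± SD of each group (n = 3) beside the points. The St points of the first 4 genes lie below all NS points of their genotype, those of *Pola2* lie above them in WT, and those of *Mcm4* overlap the NS points in both genotypes.

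The helicase itself moved little. *Mcm4*, the subunit with the most reads, was at 417, 378 and 370 FPKM in WT NS and at 401, 344 and 353 in WT St. In TNFR2-/- it was at 385, 346 and 266 in NS and at 342, 293 and 240 in St. It was lower after stimulation in all 6 cultures, by 0.06 to 0.24 on the log2 scale, but the groups overlapped and the changes of −0.09 ± 0.15 and −0.18 ± 0.15 did not pass (adjusted p = 0.784 and 0.406). Among the 6 subunits the log2 fold changes ran from −0.25 to 0.07 in WT and from −0.41 to −0.06 in TNFR2-/-, and none passed. The most negative were *Mcm2* (−0.25 ± 0.18 and −0.40 ± 0.18) and *Mcm5* (−0.21 ± 0.19 and −0.41 ± 0.19), the only 2 subunits that passed in WT with the culture as a block, when 4 did in TNFR2-/-, *Mcm4* and *Mcm7* with them. The shares of all genes tested that were lower with the block were 20.2% and 31.7%.

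*Pola2*, the regulatory subunit of polymerase alpha, was the 1 gene of the 54 that was higher in all 6 cultures. It rose in WT from 36.3, 34.7 and 31.8 to 48.3, 43 and 43.6 FPKM, with no overlap (log2 fold change 0.39 ± 0.11, adjusted p = 0.0321). In TNFR2-/- it was at 36, 35.4 and 28 FPKM in NS and at 40.4, 38.9 and 34 in St, higher in each culture, with 0.19 ± 0.11 and adjusted p = 0.225 (0.0155 with the culture as a block). *Pola1*, the catalytic subunit, was at 13.9, 14.8 and 14.2 FPKM in WT NS and 12.9, 11.9 and 12.2 in WT St, lower in each library but short of the test (−0.21 ± 0.18, adjusted p = 0.522). In TNFR2-/- its change was −0.01 ± 0.18, and that sign turned under other scalings. The primase subunit *Prim2* gave 0.02 ± 0.12 and −0.11 ± 0.12. Its partner *Prim1* and *Pold1*, the catalytic subunit of polymerase delta, gave −0.26 ± 0.17 and −0.29 ± 0.19 in WT and −0.43 ± 0.17 and −0.39 ± 0.19 in TNFR2-/-, and both passed only with the culture as a block.

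PCNA and most of the clamp loader gave small changes. *Pcna* was at 63.4, 59.1 and 65 FPKM in WT NS and at 62.9, 59.5 and 60.8 in WT St, so the groups overlapped (−0.03 ± 0.17, adjusted p = 0.943). In TNFR2-/- it was at 61.3, 57.4 and 41.7 in NS and 56.8, 47.6 and 35.6 in St (−0.20 ± 0.17, adjusted p = 0.429, or 0.00998 with the culture as a block). *Rpa3*, the smallest subunit of the single-strand binding complex, fell in TNFR2-/- from 134, 132 and 116 to 113, 96.4 and 83.4 FPKM (−0.39 ± 0.10, adjusted p = 0.0146). In WT it was at 123, 125 and 128 before and 114, 112 and 108 after, without overlap, and did not pass (−0.17 ± 0.10, adjusted p = 0.301, or 0.0446 with the block). *Rpa1*, its large subunit, gave −0.28 ± 0.15 and −0.42 ± 0.15 (adjusted p = 0.264 and 0.0585, or 0.00162 and 0.000193 with the block). *Rfc3*, a clamp loader subunit, gave 0.30 ± 0.15 in WT, where it was higher with the block (adjusted p = 0.0241), and −0.08 ± 0.15 in TNFR2-/-.

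Okazaki fragment processing and nucleotide supply held no gene that passed without the block, and 1 of 3 and 2 of 3 that passed as lower with it in each genotype. With the block 20.2% of all genes tested were lower in WT and 31.7% in TNFR2-/-. *Lig1*, DNA ligase I, was at 691, 649 and 690 FPKM in WT NS and 681, 610 and 628 in WT St. In TNFR2-/- it was at 665, 599 and 344 in NS and 627, 558 and 341 in St, so culture 5 lay far below the others in both conditions, and the changes were −0.08 ± 0.25 and −0.07 ± 0.25. The 5′ exonuclease *Exo1* gave −0.21 ± 0.17 and −0.24 ± 0.17, and was the gene that passed with the block (adjusted p = 0.031 and 0.0129). *Rrm1*, the large subunit of ribonucleotide reductase, gave −0.10 ± 0.16 in both genotypes (adjusted p = 0.0383 and 0.0244 with the block). *Rrm2* gave −0.18 ± 0.21 and −0.33 ± 0.21 (0.00797 and 0.000384) and the thymidylate synthase gene *Tyms* −0.08 ± 0.21 and −0.15 ± 0.21, and the groups of all 3 overlapped in both genotypes.

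The 9 chromatin genes were each below their NS value in all 6 cultures, with medians of −0.37 in WT and −0.39 in TNFR2-/-. *Slbp* fell from 15.4, 14.7 and 14.6 to 11.6, 10.8 and 11.4 FPKM in WT (−0.39 ± 0.10, adjusted p = 0.0187) and from 15.2, 14.7 and 12.6 to 10.3, 9.39 and 8.23 in TNFR2-/- (−0.58 ± 0.10, adjusted p = 0.00141). *Cdca7*, part of the HELLS remodeling complex, fell in TNFR2-/- from 29.5, 24.2 and 20.5 to 19.6, 15.5 and 13 FPKM (−0.61 ± 0.16, adjusted p = 0.0192). In WT it was at 21.7, 18.6 and 18.2 before and 16.1, 14.2 and 13.3 after, apart in every library, with −0.41 ± 0.16 and adjusted p = 0.124. *Hells* itself gave −0.37 ± 0.13 and −0.34 ± 0.13, and the ATPase gene *Atad2* −0.46 ± 0.18 in both genotypes, neither past the test without the block. *Dnmt1*, at 1942 to 2157 FPKM in WT and 1414 to 2039 in TNFR2-/-, gave −0.11 ± 0.13 and −0.08 ± 0.13. With the culture as a block 9 of 9 passed in WT and 8 of 9 in TNFR2-/-, where *Dnmt1* did not. Of all genes tested 20.2% in WT and 31.7% in TNFR2-/- were lower with the block.

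Among the genes of fork protection and checkpoint, *Wdr76* fell in both genotypes, from 7.06, 6.84 and 6.07 to 5.39, 5.20 and 4.71 FPKM in WT (−0.35 ± 0.09, adjusted p = 0.0233) and from 5.89, 5.88 and 5.76 to 4.75, 4.08 and 4.20 in TNFR2-/- (−0.39 ± 0.09, adjusted p = 0.00998). *Dtl*, the receptor by which the CUL4 ligase destroys CDT1 on chromatin, fell in TNFR2-/- from 16.1, 12 and 10.8 to 10.1, 8.07 and 7.45 FPKM (−0.57 ± 0.16, adjusted p = 0.0261). In WT it was at 14.5, 12 and 12.7 before and 10.6, 8.13 and 9.11 after, apart but with adjusted p = 0.0746, or 0.000792 with the block (−0.48 ± 0.16). *Clspn*, the fork adaptor of the checkpoint kinase, was at 41.5, 38.9 and 39 before and 41.5, 39 and 37.7 FPKM after stimulation in WT, ranges that overlap (−0.02 ± 0.16), and gave −0.12 ± 0.16 in TNFR2-/-. *Tipin*, *Blm* and *Rad51ap1* did not pass in either genotype without the block, and with it all 3 were lower in WT and *Tipin* and *Rad51ap1* in TNFR2-/-.

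**Figure D4:**
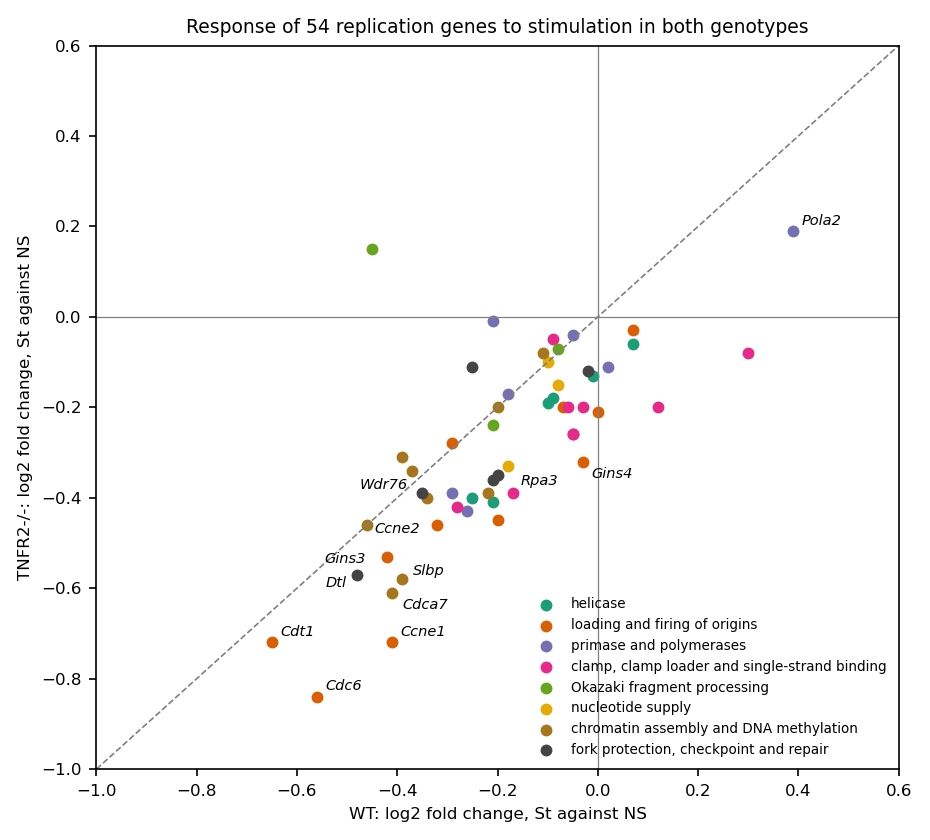
Log2 fold change of each of the 54 genes on stimulation in WT (x axis) and in TNFR2-/- (y axis), colored by role, with a dashed line where both are equal and names for genes that passed the test in either genotype. Most points lie below 0 on both axes, with *Cdc6* (−0.56 and −0.84) and *Cdt1* (−0.65 and −0.72) at the lower left and *Pola2* (0.39 and 0.19) at the upper right. *Fen1*, whose reads were few, is the point at −0.45 and 0.15.

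Other genes of the cycle, from lists chosen by name, stood as follows beside 8.36% of all genes tested that fell in WT and 16.3% in TNFR2-/- (20.2% and 31.7% with the block). Of 46 other replication genes, none passed in WT (7 had an unadjusted p under 0.05, and 13 passed as lower with the culture as a block) and 8 fell in TNFR2-/-, among them *Orc6* of the origin recognition complex (−0.39 ± 0.09, adjusted p = 0.00696), the nuclease gene *Dna2* (−0.51 ± 0.14, adjusted p = 0.0185) and *Brca2* (−0.48 ± 0.12, adjusted p = 0.0164). With the block 30 of the 46 were lower in TNFR2-/-. Of 28 G2/M genes 2, the kinase gene *Ttk* and the kinesin gene *Kif20a*, fell in each genotype, and the medians were −0.12 in WT and −0.23 in TNFR2-/- (7 and 17 lower and 2 and 2 higher with the block).

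Of 28 G2/M genes and 46 other replication genes, the shares that fell without the block were thus near or below those of all genes. Of 30 genes of G1/S control, 7 fell and 1 rose in WT and 11 fell and 3 rose in TNFR2-/-. *Cdk6*, a G1 kinase, rose from 17.2 ± 1.39 to 93.4 ± 9.77 CPM in WT (SD, n = 3, log2 fold change 2.32 ± 0.12, adjusted p = 3.27e-07) and from 18.7 ± 2.70 to 158 ± 17 in TNFR2-/- (2.96 ± 0.12, adjusted p = 4.86e-08). Of its D-type cyclin partners, *Ccnd1* fell by 0.76 ± 0.16 and 0.63 ± 0.16 and *Ccnd3* by 0.56 ± 0.12 and 0.75 ± 0.12, while *Ccnd2* did not pass (−0.16 ± 0.12 and −0.18 ± 0.12, adjusted p = 0.487 and 0.333, or 0.0608 and 0.0298 with the block). *Cdk2*, the partner of cyclin E, fell by 0.53 ± 0.13 and 0.50 ± 0.13, and *Cdkn1b*, which encodes its inhibitor p27, by 0.63 ± 0.08 and 0.72 ± 0.08. *Mycn* fell by 1.91 ± 0.34 and 1.32 ± 0.34, and *E2f2*, an activator of replication genes, fell in TNFR2-/- by 0.76 ± 0.19 (adjusted p = 0.0131). *Myc*, with a mean of 306 CPM in WT NS against 14.3 for *Mycn*, went the other way. It rose in TNFR2-/- by 0.38 ± 0.12 (limma adjusted p = 0.0417). In WT it gave 0.28 ± 0.12 (limma adjusted p = 0.174, or 0.00361 with the block). *E2f5* rose in TNFR2-/- by 0.30 ± 0.08 (limma adjusted p = 0.0264). The repressor *E2f6* fell by 0.27 ± 0.08 and 0.52 ± 0.08, and *Cdkn2d*, an inhibitor of CDK4 and CDK6, fell in TNFR2-/- by 0.34 ± 0.07 (adjusted p = 0.00508). OPC markers moved in the same libraries, 3 of 8 lower and 1 higher in WT and 4 lower in TNFR2-/-, with *Olig2* going from 913 ± 38.3 to 390 ± 14.8 CPM in WT and from 839 ± 121 to 373 ± 27.8 in TNFR2-/-. The part of that shift in the change of the replication genes was not tested.

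The second comparison asks whether both genotypes answered the cytokines differently. None of the 54 genes passed the test of the interaction (1 had an unadjusted p under 0.05, *Gins4* at −0.30 ± 0.13, adjusted p = 0.612), nor did any with the culture as a block. The same test called 1 of 18081 genes as higher (0.00553%) and 0 as lower. With the culture as a random effect it called 101 higher (0.559%) and 111 lower (0.614%), none of them among the 54. The interaction was below 0 for 42 of 54 genes, with a median of −0.12 beside −0.05 over all genes tested, or −0.07 beside 0 with median-of-ratios scaling. For *Cdc6* it was −0.27 ± 0.20 (adjusted p = 0.788) and for *Ccne1* −0.31 ± 0.18 (adjusted p = 0.713), while *Cdt1* gave −0.07 ± 0.19 (adjusted p = 0.967) and *Wdr76* −0.04 ± 0.13 (adjusted p = 0.98). The lists of genes that fell in WT and in TNFR2-/- are of different length, but a difference between the genotypes was not shown for any gene.

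The third comparison asks whether replication genes differed between the genotypes before stimulation. None of the 54 genes passed (4 had an unadjusted p under 0.05), against 4.75% lower and 6.11% higher among all genes tested. The log2 fold change of NS libraries labelled TNFR2-/- against WT NS had a median of −0.13 beside 0.04 over all genes, and 41 of 54 genes were below 0. The 4 were *Fen1* (−0.76 ± 0.24, adjusted p = 0.0655), *Pola1* (−0.50 ± 0.18, adjusted p = 0.0896), the histone chaperone gene *Nasp* (−0.35 ± 0.11, adjusted p = 0.0606) and *Atad2* (−0.42 ± 0.18, adjusted p = 0.146). *Nasp* was at 59.8, 64.4 and 56.1 FPKM in WT NS and at 52.5, 49.2 and 39.9 in the libraries labelled TNFR2-/-, with no overlap, and 12 genes in all were lower without overlap (14.3% of all genes tested), with 0 higher (19.9%). Without TNFR2-/- culture 5 the median became 0.00, 25 of 54 genes were below 0 and none passed, so the lower median in NS rested on that culture. The 4 genes stayed below 0 without it: *Fen1* at −0.64 ± 0.22, *Pola1* −0.34 ± 0.08, *Nasp* −0.24 ± 0.07 and *Atad2* −0.27 ± 0.12. In culture 5 *Lig1* was at 344 FPKM, against 599 to 691 in the other NS libraries, and *Pcna* at 41.7, against 57.4 to 65.

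After stimulation again no gene passed. The log2 fold change of St libraries labelled TNFR2-/- against WT St was below 0 for 51 of 54 genes, with a median of −0.23 beside 0.00 over all genes tested. By limma 15 genes had an unadjusted p under 0.05 and 0 were called, against 2.75% lower and 2.7% higher among all genes. *Cdc6* was at 183, 156 and 144 FPKM in WT St and at 124, 120 and 103 in the libraries labelled TNFR2-/- St, apart in every library, with −0.47 ± 0.14 and adjusted p = 0.0719. *Nasp* gave −0.35 ± 0.11 (adjusted p = 0.0757), *Mcm10* −0.36 ± 0.11 (adjusted p = 0.0768) and *Gins1* −0.42 ± 0.14 (adjusted p = 0.0875), and 16 genes were lower without overlap (17.3%), while 1, the clamp loader gene *Rfc1*, was higher without overlap (15.4%). Without TNFR2-/- culture 5 the median was −0.10, beside −0.01 over all genes, 44 of 54 genes were below 0 and none passed.

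**Figure D5:**
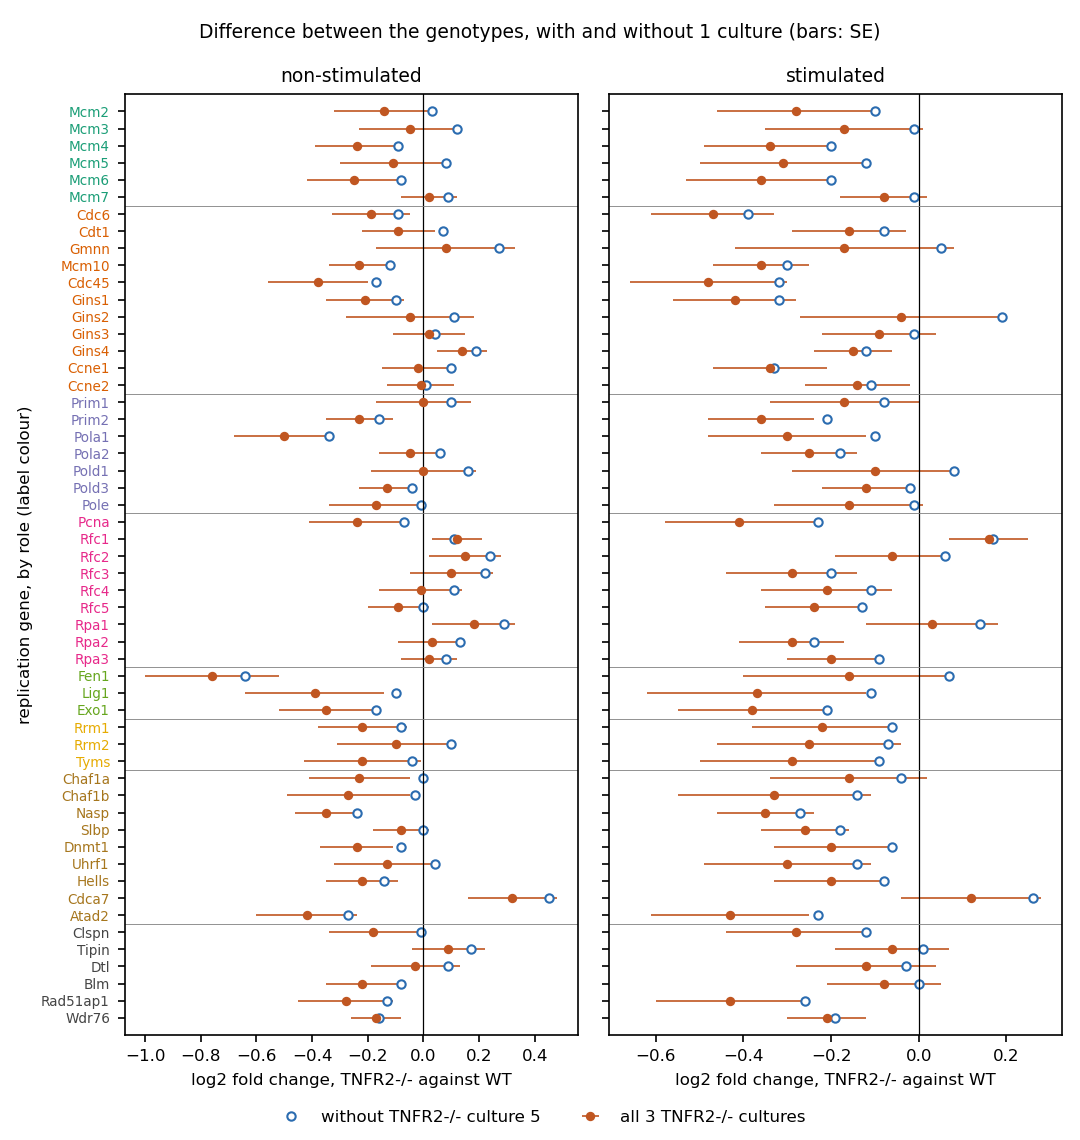
Log2 fold change of TNFR2-/- against WT for each of the 54 genes in NS (left) and St (right), with SE bars for all 3 TNFR2-/- cultures (orange) and open blue points for the values without culture 5. In NS the blue points scatter around 0, with a median of 0.00, while in St most stay below 0, with a median of −0.10.

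Markers of other cells differed between the same libraries. Astrocyte markers were higher in libraries labelled TNFR2-/- for 8 of 8 genes in both conditions, 2 of them past the test in each, with medians of 0.81 in NS and 0.80 in St. Their summed level was 1951 to 2240 CPM in WT NS, 1877 to 1950 in WT St, 2803 to 4532 in TNFR2-/- NS and 2854 to 4501 in TNFR2-/- St. Both TNFR2-/- maxima were in culture 5, and none of the 8 markers was near 0. Mural and fibroblast markers were lower for 6 of the 7 that passed the filter in each condition, with 0 called (2 in each at an unadjusted p under 0.05). Their summed level was 756 to 1282 CPM in WT NS and 449 to 885 in TNFR2-/- NS, and 634 to 1071 and 305 to 704 in St. *Cspg4*, which is in the OPC list as well, gave 409 to 501 CPM of that sum in WT NS and 341 to 422 in TNFR2-/- NS, and of the other 6 genes 5 were lower in each condition. Mature oligodendrocyte markers were higher for 8 of 8 genes in NS (median 0.44) and 6 of 8 in St (median 0.17), with 0 called (1 and 0 at an unadjusted p under 0.05). Their summed level was 534 to 1022 CPM in WT NS and 722 to 1301 in TNFR2-/- NS, and 578 to 1033 and 565 to 1100 in St, with both TNFR2-/- maxima in culture 5. Neuron markers were lower for 7 of 8 genes in each condition, 2 of them past the test in NS, *Map2* (−0.24 ± 0.06, adjusted p = 0.0342) and *Dcx* (−0.40 ± 0.11, adjusted p = 0.0421), and 0 in St (1 at an unadjusted p under 0.05). Their summed level was 893 to 988 CPM in WT NS and 782 to 797 in TNFR2-/- NS, and 1132 to 1192 and 1117 to 1205 in St. Most of the sum in NS was *Map2* (732 ± 43.6 CPM in WT and 620 ± 8.43 in TNFR2-/-, SD, n = 3). The higher sum in St came with *Tubb3*, from a mean of 47.3 to 395 CPM in WT and 51.8 to 460 in TNFR2-/-. *Snap25* went the other way, from 44.2 to 21.4 and from 39.6 to 20.2, so the sums do not measure the number of neurons. OPC markers were lower for 4 of 8 genes in NS and 3 of 8 in St, with 0 called in NS and 1 in St. That gene was *Pdgfra*, lower in TNFR2-/- (−0.60 ± 0.15, limma adjusted p = 0.0488). The G2/M genes followed the replication genes, with 27 of 28 below 0 in NS and 28 of 28 in St, medians of −0.27 and −0.38 and 0 called. Their summed level was 1197 and 1100 CPM in culture 5, against 1571 to 1953 in the other TNFR2-/- libraries and 1749 to 2062 in WT. The part of these other cells in the differences between genotypes was not tested.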

How the data were processed

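Bulk RNA was sequenced from 12 libraries. By the study's methods the authors ran Trim Galore on the paired reads, then aligned to GRCm38 and counted read pairs per Ensembl gene with STAR and scaled them with edgeR. The deposited values are FPKM by gene symbol, in separate NS and St tables of 45792 entries each. For this report 229 entries that share 99 symbols were left out. Each FPKM is a whole read count scaled by the library and by a fixed divisor of its gene, and those reads were recovered (within 0.02 reads) for all 26636 genes above 0 in at least 2 libraries. That divisor was unrelated to exon length in GENCODE M21 (Spearman rho 0.0097 over 16010 genes, which are not independent), so genes were compared with each other only as recovered reads per kilobase of exon. Reads on genes were 26870251 to 30009349 in WT NS, 29996705 to 30065775 in WT St, 30085305 to 30316546 in TNFR2-/- NS and 28668171 to 30220965 in TNFR2-/- St.

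The main test was limma-trend (limma 3.58.1, R 4.3.3) on log2(FPKM + 0.5), fitting the 4 groups together. It took the 18081 genes whose mean reached 0.1 FPKM, with Benjamini-Hochberg adjustment over all of them and a call at 0.05, two-sided. Fold changes understate the change of genes with a low FPKM because of the pseudocount. With this divisor a low FPKM need not mean few reads. *Mcm10* had a mean of 528 reads and group means of 0.9 to 1.38 FPKM, and *Gins3* 193 reads and 0.863 to 1.46 FPKM. *Cdc6* had 424 reads and 116 to 238 FPKM. Sizes of change of genes such as *Mcm10*, *Gins3*, *Gins1* and *Fen1* are therefore not comparable with those of other genes. Count tests were an alternative (voom on recovered reads), with other scalings, filters, pseudocounts, replicate blocks and each library left out. The fits and the read recovery were tested on simulated data. NS and St libraries of 1 genotype with the same replicate number deviated together (r 0.21 to 0.52 over 6 pairs, against −0.35 to 0.07 for other numbers), and were taken as a culture. Across genotypes the numbers did not pair (−0.04 to 0.15). Nothing says how many pups made a culture, so p-values measure the spread between these libraries.

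The members and all lists were chosen with earlier results of these data known. Genes named are members past the test, the member with the most reads in each role, and, of other lists, genes past the test, at most 6 a list and comparison by smallest p. Other members, *Gfap*, *Aldh1l1*, *Gpr17*, *Cnp*, *Ccnd2*, and *Cspg4* between genotypes, were named after their values were seen. Python 3.11.15, numpy 2.4.6, pandas 2.3.3 and matplotlib 3.10.9 were used. Counts carry counting error, least for genes with many reads. Promoter sequences are from RefSeq (GRCm38.p6).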

Additional observations from a re-analysis of the deposited data

Results flagged for a closer look

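In 3 genes the cultures of the genotypes went opposite ways: every WT culture was higher after stimulation, 1 of them for *Mcm3* only barely, and every culture labelled TNFR2-/- lower. They were *Rfc3* (WT differences of 0.19 to 0.50, TNFR2-/- −0.24 to −0.01, interaction −0.38 ± 0.21), *Rpa2* (0.06 to 0.19 and −0.37 to −0.10, interaction −0.32 ± 0.17) and *Mcm3* (0.00 to 0.16 and −0.11 to −0.02, interaction −0.13 ± 0.25). The tests of the difference did not pass, with limma adjusted p = 0.711, 0.676 and 0.955, or 0.134, 0.169 and 0.294 with the culture as a block. Such a split was seen in 3 of 54 genes (5.56%) and in 3.67% of all genes tested.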

How the results depend on the processing

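The 5 median log2 fold changes moved by less than the spread between replicates (SD 0.188) in 138 of 138 recomputations. That spread is larger than the medians between genotypes in NS (−0.13) and for the interaction (−0.12). For these a move to 0 would still count as less than the spread, so the count does not show that they were stable. With each library dropped, medians ran from −0.24 to −0.13 for stimulation in WT, −0.39 to −0.14 in TNFR2-/-, −0.24 to 0.00 between genotypes in NS, −0.36 to −0.10 in St and −0.26 to 0.02 for the interaction. The number of genes called moved more, and the cause was not tested. In WT (5 called) it was 13 with library weights, 13 with the spread of the 6 libraries compared, 28 with a replicate block by number over both genotypes, 32 with the replicate block within genotype, 18 with that block as a random effect and 1 with an added fold of 1.5 and mean of 1 FPKM. It was 10 without TNFR2-/- culture 5, 23 with the block and median-of-ratios factors and 30 with the block and without culture 5 (the last 3 chosen after seeing the data). In TNFR2-/- (11 called) it was 6 with median-of-ratios factors, 4 with the 6 libraries compared, 34, 35 and 32 with the 3 blocks in the same order, 4 with the added fold, 25 with the block and median-of-ratios factors and 29 with the block and without culture 5. Between genotypes in NS (0 called) it was 1 with a mean of at least 1 FPKM, 1 with voom, 1 with library weights, 7 with the block by number and 1 with the random block. In St (0 called) it was 1 with voom, 1 with library weights, 17 with the block by number and 2 with the random block. The numbers do not pair across genotypes, so the block by number is no paired test there. With 1 library dropped at a time there were 1 to 7 calls in WT, 6 to 21 in TNFR2-/-, 0 to 3 in NS (3 without TNFR2-/- St 5, 1 without TNFR2-/- NS 2) and 0 to 3 in St (3 without TNFR2-/- NS 5). The interaction gave 0 calls throughout. Shares of all genes tested moved too, from 8.36% lower and 7.7% higher in WT in the main test. With the 3 blocks in the same order they were 18.5%, 20.2% and 20% lower and 11%, 11.4% and 12.2% higher. In TNFR2-/- they were 30%, 31.7% and 31.9% lower and 12.9%, 13.4% and 13.8% higher, against 16.3% and 9.62%. Between genotypes the block by number gave 7.55% lower and 9.75% higher in NS, and 8.05% and 5.96% in St.

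The calls of *Cdc6*, *Cdt1*, *Ccne1* and *Slbp* in TNFR2-/- and of *Cdt1* in WT held under all 28 alternatives run for each. *Pola2* in WT missed in 7 of 28 (limma adjusted p 0.000614 to 0.117), *Slbp* and *Wdr76* in WT in 4 each, *Cdc6* in WT in 3 (0.000351 to 0.082). In TNFR2-/- *Ccne2* and *Gins4* missed in 6, *Cdca7* and *Dtl* in 5, *Gins3* and *Rpa3* in 3 and *Wdr76* in 1. Signs turned only for values that had not passed. With median-of-ratios factors, with or without the replicate block, *Pcna* in WT was 0.03, *Clspn* in WT 0.04, *Pola1*, *Lig1*, *Rrm1* and *Dnmt1* in TNFR2-/- 0.10, 0.05, 0.01 and 0.04 and the interaction of *Rrm1* 0.05. With quantile normalization *Pola1* in TNFR2-/- was 0.04 and the interaction of *Rrm1* 0.00. Without culture 5, with or without the block, *Pola1* in TNFR2-/- was 0.03 and the interactions of *Lig1* and *Rrm1* −0.01 and 0.02, and *Cdt1* between genotypes in NS was 0.07. *Cdt1* there was 0.01 with library weights and 0.01 with the block by number, and the interaction of *Lig1* was −0.03 with library weights. Under the same leave-one-out fits the interactions ran from −0.23 to 0.03 for *Cdt1*, −0.27 to 0.06 for *Clspn*, −0.12 to 0.18 for *Dnmt1*, −0.28 to 0.28 for *Lig1*, −0.25 to 0.03 for *Mcm4*, −0.34 to 0.01 for *Pcna* and −0.14 to 0.16 for *Rrm1*. For stimulation in TNFR2-/- it gave −0.28 to 0.04 for *Clspn*, −0.23 to 0.06 for *Dnmt1*, −0.36 to 0.20 for *Lig1*, −0.17 to 0.19 for *Pola1* and −0.24 to 0.06 for *Rrm1*. It gave −0.05 to 0.01 for *Clspn* in WT and −0.19 to 0.07 for *Cdt1* between genotypes in NS. With 13 reads in a library, *Fen1* is limited by depth.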
